A study of Mus musculus with 18 samples.

Results

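Bone morphogenetic protein (BMP) signalling was followed in mouse colon through 9 genes, of 27131 rows in the deposited table. They are the ligands Bmp2, Bmp3, Bmp4, Bmp5 and Bmp7, the secreted antagonist Grem1, and the target genes Id1, Id2 and Id3. They were chosen by gene symbol, and each symbol matched 1 row. The libraries were polyadenylated RNA from colon of untreated C57BL/6 mice, 9 labelled HIF2 and 9 labelled WT. HIF2 mice carry an altered Hif2a allele, written LFL in the sample labels and LSL in the design text, and are described as overexpressing HIF2 in the colon; WT mice are Hif2a +/+. HIF2 (HIF-2α) is a hypoxia-inducible transcription factor, and Epas1 is its gene. The sources used here do not give the driver of the allele, the age and sex of the mice or the number of mice per library, so p-values measure the spread between libraries, which may be technical.

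BMP ligands are secreted dimers that bring together type I and type II receptor kinases, which then activate the SMAD proteins that carry the signal to the nucleus. The Id genes are classic targets of that signal and encode helix-loop-helix proteins that lack a DNA-binding region and hold back the basic helix-loop-helix factors they bind. In the colon, ligands come from stroma and from mature epithelium near the lumen, while antagonists such as Grem1 come from stromal and muscle cells beneath the crypts, so that signalling is weak around the stem cells and stronger towards the surface.

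Values are FPKM, fragments scaled by transcript length and library size, so levels can be set side by side between genes. Differences are of log2(FPKM + 1), HIF2 minus WT, from limma fitted to the 13976 genes with a mean of at least 1 FPKM, with p-values adjusted over all of them, and a call is an adjusted p under 0.05. This scale understates the change of low genes. FPKM sums lay between 686539 and 937505 per library, and absolute depth is unknown. Epas1, the gene behind the labels, ranged from 16.6 to 35.9 FPKM in HIF2 (median 20.4) and from 13.8 to 23.0 FPKM in WT (median 18.6), a difference of 0.24 (SE 0.14) that did not pass (limma adjusted p = 0.246). In HIF2 replicates 0, 6, 7 and 8 Epas1 lay above the WT range, at 35.9, 25.2, 27.9 and 24.4 FPKM. The other 5 HIF2 libraries lay inside the WT range. Epithelial markers were abundant throughout, with a sum over 8 genes of 5473 to 9230 FPKM in HIF2 and 5542 to 7994 FPKM in WT, of which Krt8 and Krt19 are the largest part. Of these 8, Cdh1, Vil1, Cdx2 and Cldn7 were called lower in HIF2, by -0.38 to -0.60. The other 4 were not called, with Epcam at -0.17, Krt18 at 0.24, Krt19 at 0.10 and Krt8 at 0.04. Of 5 surface colonocyte markers, 4 were called lower, Car4 by -1.69, Slc26a3 by -1.97, Krt20 by -0.67 and Ceacam1 by -0.57. The remaining surface marker, Aqp8, differed by 0.42 and was not called. Stromal RNA differed between libraries: 11 smooth muscle markers summed to 1307 to 3233 FPKM in HIF2 replicates 0 to 5, 65.3 to 171 FPKM in HIF2 replicates 6 to 8, 1064 FPKM in WT replicate 3 and 31.3 to 171 FPKM in the other WT libraries. For 10 fibroblast markers the sums were 850.0 to 978 FPKM in HIF2 replicates 0 to 5, 131 to 275 FPKM in replicates 6 to 8 and 37.2 to 261 FPKM in WT. HIF2 replicates 6 to 8 also lay apart on the second principal component.

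Of the 9 genes, all passed the filter on low values, Grem1 only through the HIF2 libraries, since its WT mean was 0.531 FPKM. Bmp4, Bmp5, Grem1 and Id2 were higher in HIF2 and Id1 was lower, while Bmp2, Bmp3, Bmp7 and Id3 did not pass. Over all genes tested, 11.0% were called higher and 11.1% lower, and the median difference was -0.02, against 0.18 over these 9. The 9 genes were chosen with earlier results of these data known, so the count is a description.

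**Figure D1:**
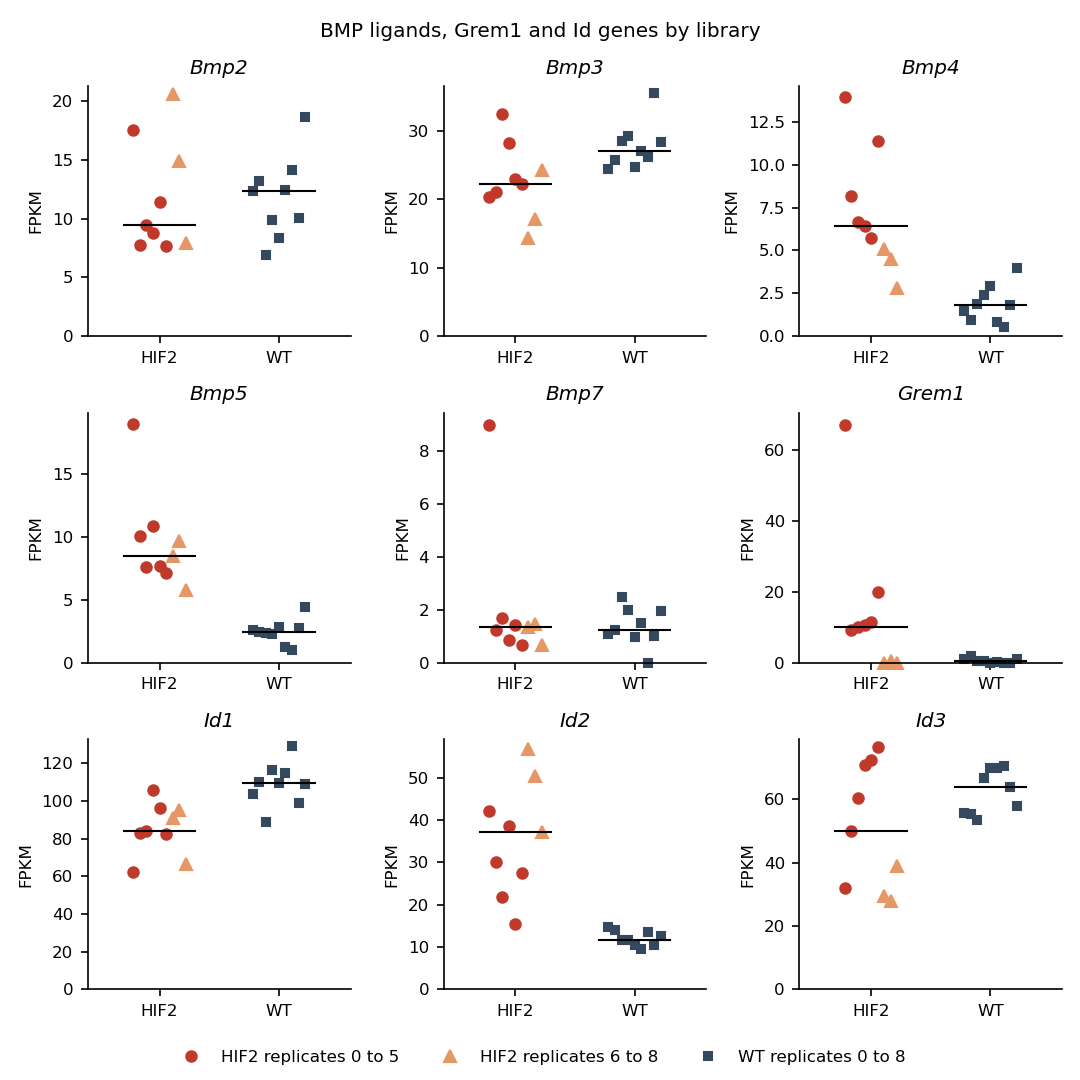
FPKM (linear axes from 0) of the 9 genes in each library, with HIF2 on the left (circles, replicates 0 to 5; triangles, replicates 6 to 8) and WT on the right (squares); bars are group medians. Bmp5 and Id2 have no overlap between the groups, Grem1 is raised in 6 HIF2 libraries, and Id3 is low in HIF2 replicates 0, 6, 7 and 8.

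Bmp5 gave the clearest separation among the ligands. It encodes a ligand of the group that also holds BMP7 and lies on chromosome 9, 75775364 to 75900310 on the plus strand (GENCODE M21, GRCm38, the assembly that mm10 denotes). Bmp5 ran from 5.79 FPKM in HIF2 replicate 8 to 18.9 FPKM in HIF2 replicate 0, with a median of 8.48 FPKM, and in WT from 1.03 to 4.44 FPKM, with a median of 2.43 FPKM. All 9 HIF2 libraries lay above all 9 WT libraries, an arrangement found in 0.758% of all genes tested (the opposite arrangement, with all HIF2 libraries below, was found in 1.27%). The difference was 1.60 (SE 0.19, 95% confidence interval 1.20 to 2.01, limma adjusted p = 2.61e-05). An exact 2-sided permutation test over all 48620 assignments of the labels gave p = 4.11e-05, the smallest it can give.

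Bmp4, a ligand closely related to BMP2 and made by stromal cells of the gut, rose alongside it. The gene lies on chromosome 14, 46383520 to 46390669 on the minus strand. Bmp4 ran from 2.82 to 13.9 FPKM in HIF2, with a median of 6.45 FPKM, and from 0.501 to 3.99 FPKM in WT, with a median of 1.81 FPKM. HIF2 replicate 8, the lowest, was the 1 HIF2 library inside the WT range, and the other 8 lay above it. The difference was 1.50 (SE 0.26, 95% confidence interval 0.97 to 2.04, limma adjusted p = 0.000520).

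Bmp2, Bmp3 and Bmp7 did not follow. Bmp3 (chromosome 5, 98854415 to 98884396, plus strand) encodes an atypical member that is known to restrain signalling by other BMPs. It ran from 14.4 to 32.4 FPKM in HIF2, with a median of 22.1 FPKM, and from 24.4 to 35.5 FPKM in WT, with a median of 27.0 FPKM. In 7 of the 9 HIF2 libraries Bmp3 lay below the WT minimum, but the difference of -0.31 (SE 0.12) missed the threshold (limma adjusted p = 0.0717, exact permutation p = 0.0198 before adjustment). It passed without HIF2 replicate 2 or 3 (limma adjusted p = 0.0195 and 0.0470), and with the smooth muscle and the epithelial marker means as covariates, at -0.48 and -0.52 (limma adjusted p = 0.0377 and 0.00560). Bmp3 differed by -0.57 between HIF2 replicates 6 to 8 and the 8 WT libraries without replicate 3, and passed (limma adjusted p = 0.0169), and by -0.18 without those HIF2 replicates (limma adjusted p = 0.233).

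Bmp2 (chromosome 2, 133552159 to 133562885, plus strand), a ligand of mature epithelium, ran from 7.69 to 20.6 FPKM in HIF2, with a median of 9.49 FPKM, and from 6.88 to 18.7 FPKM in WT, with a median of 12.4 FPKM. The groups overlapped in 8 of 9 HIF2 libraries, and the difference was -0.03 with a 95% confidence interval of -0.45 to 0.39 (limma adjusted p = 0.935). Bmp7 (chromosome 2, 172868012 to 172940321, minus strand), a ligand that shares receptors with BMP5, was 9.02 FPKM in HIF2 replicate 0 and 0.661 to 1.69 FPKM in the other HIF2 libraries. In WT it was listed at 0 in replicate 6 and lay between 0.983 and 2.47 FPKM in the others. The difference of 0.18 had an interval of -0.45 to 0.81 (limma adjusted p = 0.732), and without HIF2 replicate 0 it was -0.07. That library also had the highest summed level of 5 subepithelial PDGFRA-high fibroblast markers, 241 FPKM, against 21.3 to 76.3 FPKM in the other HIF2 libraries and 17.6 to 30.1 FPKM in WT. F3 is the largest part of this sum, with means of 51.5 FPKM in HIF2 and 17.1 FPKM in WT. The log2 mean of the 4 tested markers, relative to WT, was 2.47 in that library and 0.302 to 0.994 in the other HIF2 libraries. Between the groups 3 of these 4 were called higher, and Sox6 differed by -0.15. That library also had the highest log2 means of endothelial (2.53), enteric neuron and glia (2.89) and mesothelial (1.84) markers. It did not for smooth muscle (2.89), fibroblast (2.80) or macrophage (1.54) markers. On the first principal component it lay furthest out, at -84.1. The part of any of these cells in the Bmp7 value was not tested.

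Set side by side per length, Bmp3 was the most abundant of the 5 ligands in 8 of 9 HIF2 libraries and 9 of 9 WT libraries; in HIF2 replicate 6 it was Bmp2. The next places differed: Bmp2 exceeded Bmp5 in 6 of 9 HIF2 libraries and in 9 of 9 WT libraries. Bmp5 exceeded Bmp4 in 8 of 9 HIF2 and 7 of 9 WT libraries, and Bmp4 exceeded Bmp7 in 9 of 9 HIF2 and 6 of 9 WT libraries, so the order of these last 3 was not the same in every WT library. Bmp4 and Bmp5 together made up 20.8% to 41.2% of the summed ligand FPKM in HIF2, with a median of 29.7%, and 3.67% to 14.7% in WT, with a median of 9.54%. The sum itself was 41.5 to 79.8 FPKM in HIF2 and 39.9 to 57.4 FPKM in WT, and 7 HIF2 libraries lay inside the WT range. These shares follow from the single genes above and were not tested.

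**Figure D2:**
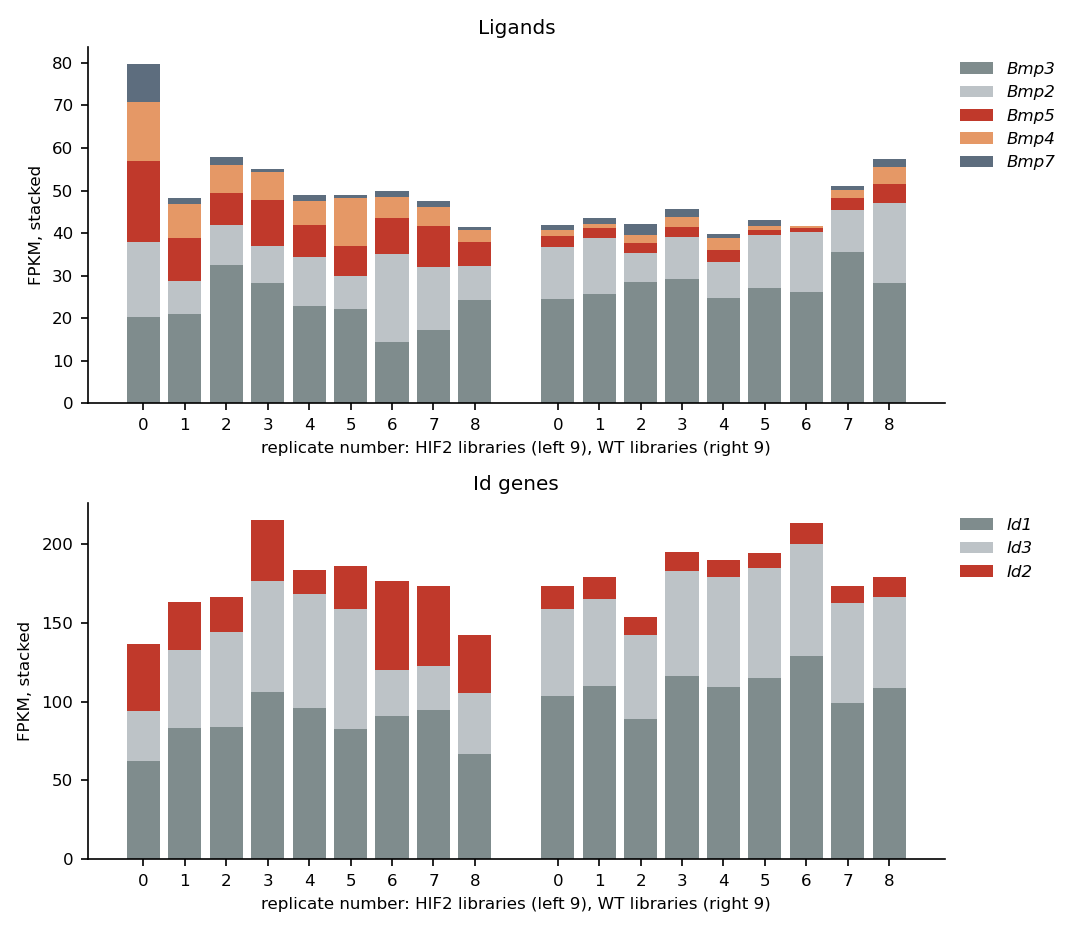
FPKM of the 5 ligands (top) and the 3 Id genes (bottom), stacked for each library, with the 9 HIF2 libraries left of the 9 WT libraries. Bmp4 and Bmp5 take a larger share of the ligand column in every HIF2 library, and Id2 (red, lower panel) is largest in HIF2 replicates 6 and 7.

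The 250 bases before the start of Bmp4, Bmp5 and Grem1, the secreted factors that were called, are shown because they rose in the same group of libraries. The sequences are from RefSeq on GRCm38.p6, printed 5′ to 3′ on the strand of the gene. Capitals mark the cores ACGTG and GCGTG of hypoxia response elements, the E-box CACGTG, which overlaps ACGTG on both strands, and GGCGCC, a GC-rich element bound by SMAD1 and SMAD5, each searched on both strands.
Bmp4, chr14:46390670-46390919, minus strand: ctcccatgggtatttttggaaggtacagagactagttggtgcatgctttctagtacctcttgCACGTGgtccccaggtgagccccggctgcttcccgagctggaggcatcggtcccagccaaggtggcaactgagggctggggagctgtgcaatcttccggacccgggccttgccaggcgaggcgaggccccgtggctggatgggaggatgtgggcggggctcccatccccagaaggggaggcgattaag
Bmp5, chr9:75775115-75775364, plus strand: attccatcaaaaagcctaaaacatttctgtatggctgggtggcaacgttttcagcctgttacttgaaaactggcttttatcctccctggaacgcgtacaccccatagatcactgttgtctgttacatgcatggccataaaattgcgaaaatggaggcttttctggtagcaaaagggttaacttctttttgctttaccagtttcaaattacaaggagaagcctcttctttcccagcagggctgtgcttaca
Grem1, chr2:113758649-113758898, minus strand: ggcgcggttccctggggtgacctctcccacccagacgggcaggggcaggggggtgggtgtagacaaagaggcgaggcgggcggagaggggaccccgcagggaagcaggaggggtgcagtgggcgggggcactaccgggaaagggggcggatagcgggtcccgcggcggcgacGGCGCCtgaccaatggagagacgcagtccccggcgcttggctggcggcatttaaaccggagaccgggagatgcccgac

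The 3 windows share no match. Bmp4 holds 1 CACGTG, starting 188 bases before the gene start, and Grem1 holds 1 GGCGCC, starting 78 bases before it, while Bmp5 holds none of the 4 motifs. Among windows of the same length in 32851 promoters, ACGTG was present in 16.6%, GCGTG in 28.2%, CACGTG in 6.02% and GGCGCC in 9.59%. A match describes these letters only. Of the 9 genes, 5 had an entry in the promoter table, and Bmp2, Bmp3, Bmp7 and Id1 had none. The windows of Id2 and Id3 were searched too. They lie inside the GENCODE M21 positions of these genes and are not shown. Id2 held 1 GGCGCC, starting 231 bases before its RefSeq start, and Id3 held 1 GCGTG, starting 8 bases before.

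Grem1 (chromosome 2, 113746164 to 113758646, minus strand) encodes gremlin 1, which binds BMP2, BMP4 and BMP7 and keeps them from their receptors. It was 67.3 FPKM in HIF2 replicate 0, 19.9 FPKM in replicate 5 and between 9.24 and 11.6 FPKM in replicates 1 to 4. In HIF2 replicates 6 and 8 it was listed at 0, and in replicate 7 it was 0.328 FPKM. In WT it was listed at 0 in replicates 4, 6 and 7 and reached at most 1.88 FPKM, in replicate 1. Thus 6 HIF2 libraries lay above every WT library and 3 lay inside the WT range.

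The difference in Grem1 was 2.24 (SE 0.68, 95% confidence interval 0.81 to 3.68, limma adjusted p = 0.0235). The call was lost with pseudocounts of 0.1 and 0.01 and in an exact rank test over the same libraries (adjusted p = 0.0628, 0.156 and 0.207). The 6 HIF2 libraries with Grem1 above the WT range are the 6 with the highest smooth muscle marker sums, whereas WT replicate 3, at 1064 FPKM of those markers, had 0.528 FPKM of Grem1. With the smooth muscle marker level added as a covariate the difference was 0.43 (SE 0.64, limma adjusted p = 0.701), and with the fibroblast level it was -0.61 (SE 0.77, limma adjusted p = 0.652). In bulk tissue, fewer cells of a type and less RNA per cell cannot be told apart.

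**Figure D3:**
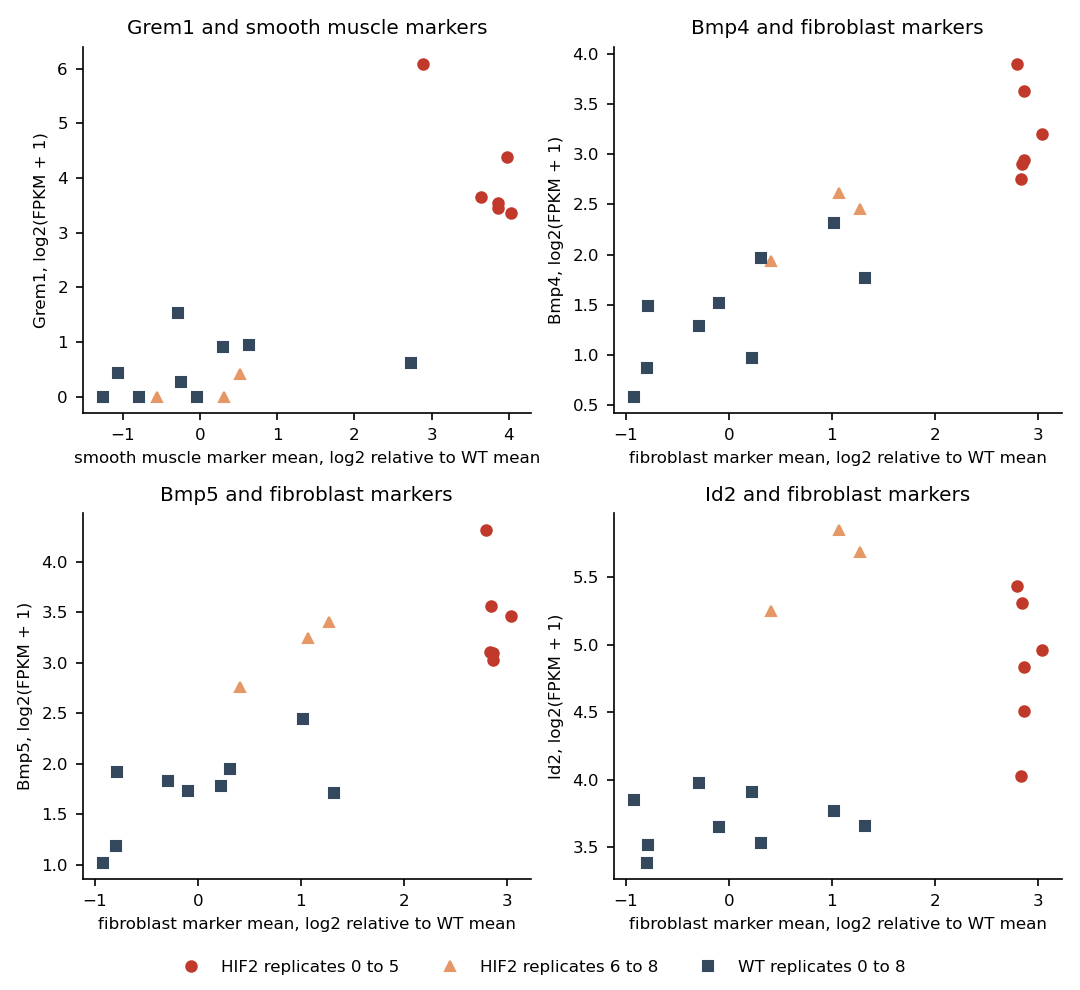
log2(FPKM + 1) of Grem1, Bmp4, Bmp5 and Id2 in each library against the mean of smooth muscle or fibroblast markers, on a log2 scale relative to the WT mean (circles, HIF2 replicates 0 to 5; triangles, HIF2 replicates 6 to 8; squares, WT). Bmp5 and Id2 in HIF2 replicates 6 to 8 lie above WT libraries of similar fibroblast level, whereas Grem1 in those libraries lies within the WT range.

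The same stromal values stand beside the calls of Bmp4 and Bmp5. All 10 fibroblast markers were called higher in HIF2, as were 10 of 11 smooth muscle and 7 of 7 endothelial markers, and none of them was at 0 in all libraries. With the smooth muscle level added as a covariate, Bmp5 differed by 1.42 (SE 0.25, limma adjusted p = 0.00130) and Bmp4 by 0.94 (SE 0.27, limma adjusted p = 0.0297), in a fit that called 6.79% of genes higher and 7.30% lower. With the fibroblast mean, Bmp5 differed by 1.08 (SE 0.28, limma adjusted p = 0.0216) and Bmp4 by 0.44 (SE 0.29, limma adjusted p = 0.346), in a fit that called 5.68% higher and 5.52% lower. A covariate that differs between the groups cannot separate fully from the genotype.

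HIF2 replicates 6 to 8 had smooth muscle sums of 65.3 to 171 FPKM, against 31.3 to 171 FPKM in the 8 WT libraries without replicate 3. Their fibroblast sums were 131 to 275 FPKM, against 37.2 to 205 FPKM. Other stromal sums were less alike. Subepithelial PDGFRA-high fibroblast markers summed to 49.5 to 76.3 FPKM, against 17.6 to 30.1 FPKM. Enteric neuron and glia sums were 5.23 to 9.54 FPKM, against 1.53 to 4.23 FPKM, and mesothelial sums 5.055 to 11.0 FPKM, against 1.18 to 3.03 FPKM. Endothelial sums were 17.2 to 21.8 FPKM, against 4.55 to 17.5 FPKM, and macrophage sums 20.1 to 39.7 FPKM, against 5.335 to 30.0 FPKM. The part of these cells in the differences was not tested. In a fit of these HIF2 and WT libraries alone, Bmp5 differed by 1.41 (SE 0.26, limma adjusted p = 0.00293) and Bmp4 by 0.96 (SE 0.33, limma adjusted p = 0.0639), with 8.97% of genes called higher and 10.6% lower. Grem1 fell under the filter in this subset, which was chosen by its smooth muscle RNA, known from earlier results. Y-linked genes were near 0 in all 3 of these HIF2 libraries, with a sum of at most 0.461 FPKM, and their sum in the 8 WT libraries ran from 0 to 124 FPKM. With the mean of the Y-linked genes as a covariate in all 18 libraries, the counts of the 9 genes called were the same, 4 higher and 1 lower. That fit called 1624 of 13976 genes higher and 1621 lower. It does not cover the fit of HIF2 replicates 6 to 8, where the part of the Y-linked difference was not tested. Without HIF2 replicates 6 to 8, in a fit that called 12.5% of genes higher and 13.4% lower, Bmp4 differed by 1.80, Bmp5 by 1.70 and Grem1 by 3.56.

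Of the 3 Id genes, Id2 was called higher, Id1 was called lower and Id3 did not pass. Id2 (chromosome 12, 25093799 to 25097140, minus strand) was higher in HIF2, where it ran from 15.3 to 56.7 FPKM with a median of 37.1 FPKM, against 9.43 to 14.8 FPKM with a median of 11.6 FPKM in WT. All 9 HIF2 libraries lay above all 9 WT libraries, as for 0.758% of all genes tested, the lowest being HIF2 replicate 4. The difference was 1.40 (SE 0.19, limma adjusted p = 0.000102, exact permutation p = 4.11e-05, the smallest possible).

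Id2 was highest in HIF2 replicates 6 and 7, which had little smooth muscle RNA. It was 56.7, 50.5 and 37.1 FPKM in HIF2 replicates 6, 7 and 8, and 15.3 to 42.2 FPKM in HIF2 replicates 0 to 5. The Id2 difference was 1.90 (SE 0.15, limma adjusted p = 5.03e-06) when only HIF2 replicates 6 to 8 were set against the 8 WT libraries, and 1.15 (SE 0.18, limma adjusted p = 0.000159) without those replicates. With the smooth muscle and fibroblast means as covariates it differed by 1.75 and 1.83 and passed in both.

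Id1 (chromosome 2, 152736251 to 152737410, plus strand), the target most often used as a readout of BMP signalling, was the most abundant of the 3 and was lower in HIF2. It ran from 62.4 to 106 FPKM in HIF2, with a median of 84.2 FPKM, and from 88.9 to 129 FPKM in WT, with a median of 109.5 FPKM. All 9 HIF2 libraries lay below the WT median and 5 lay below the WT minimum. The difference was -0.36 (SE 0.10, 95% confidence interval -0.57 to -0.16, limma adjusted p = 0.0115). The call was lost with the fibroblast and epithelial means as covariates and in HIF2 replicates 6 to 8, where the differences were -0.42, -0.34 and -0.37 (limma adjusted p = 0.0950, 0.0512 and 0.0591). The epithelial covariate fit called 9.72% of genes higher and 9.80% lower. The 4 of 8 epithelial and 4 of 5 surface colonocyte markers called lower stand beside the lower level of Id1. Whether they are linked was not tested.

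Id3 (chromosome 4, 136143497 to 136145755, plus strand) ran from 28.0 to 76.6 FPKM in HIF2, with a median of 49.9 FPKM, and from 53.4 to 70.6 FPKM in WT, with a median of 63.9 FPKM. HIF2 libraries lay on both sides of the WT range, with 3 above it and 5 below it. The difference of -0.38 (SE 0.19) did not pass (limma adjusted p = 0.162). Id3 was 29.5, 28.0 and 38.8 FPKM in HIF2 replicates 6, 7 and 8 and 31.9 FPKM in replicate 0, against 49.9 to 76.6 FPKM in HIF2 replicates 1 to 5. Replicates 6 to 8, set against the same 8 WT libraries, gave -0.94 (SE 0.12, limma adjusted p = 0.000243), and the other HIF2 libraries against all WT libraries gave -0.10 (SE 0.16, limma adjusted p = 0.690). Whether these differ was not tested. With the smooth muscle level added as a covariate Id3 differed by -0.81 and passed (limma adjusted p = 0.0106). Epithelial markers summed to 7232 to 9230 FPKM in HIF2 replicates 6 to 8 and 5473 to 7235 FPKM in HIF2 replicates 0 to 5. The covariate was not this sum but the mean of log2(FPKM + 1) over the markers. Relative to WT, that mean was 0.0795, 0.022 and -0.0823 in HIF2 replicates 6, 7 and 8. In HIF2 replicates 0 to 5 it was -0.42 to -0.10. With this mean as a covariate Id3 differed by -0.59 and did not pass (limma adjusted p = 0.0599).

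The order of the Id genes changed in some libraries. Id1 exceeded Id3 in 9 of 9 HIF2 and 9 of 9 WT libraries. Id2 exceeded Id3 in 3 of 9 HIF2 libraries, replicates 0, 6 and 7, and in 0 of 9 WT libraries. Id2 made up 8.33% to 32.0% of the summed Id1, Id2 and Id3 FPKM in HIF2, with a median of 18.5%, and 4.86% to 8.49% in WT, with a median of 6.29%. Their sum was 137 to 216 FPKM in HIF2, with a median of 173 FPKM, and 154 to 214 FPKM in WT, with a median of 179.5 FPKM.

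**Figure D4:**
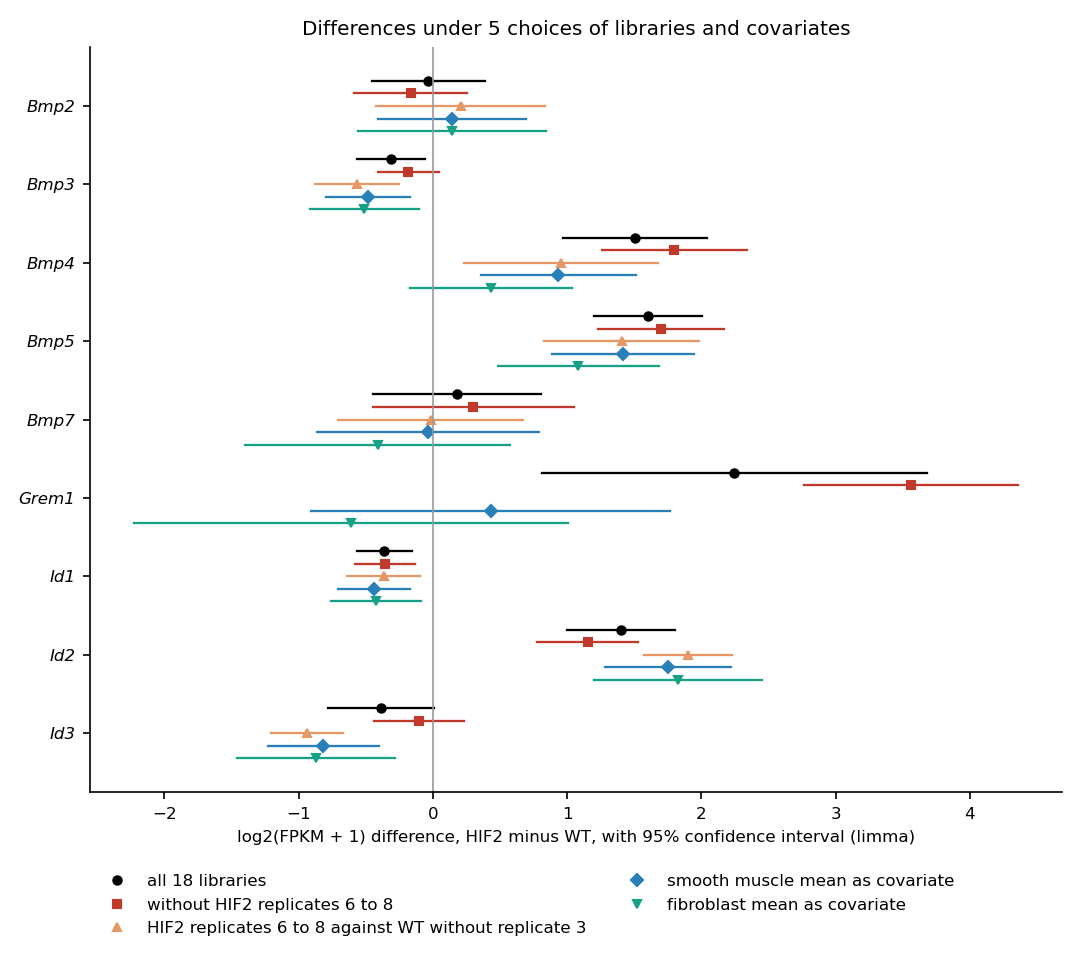
Difference in log2(FPKM + 1), HIF2 minus WT, with its 95% confidence interval from limma, for the 9 genes under 5 choices of libraries and covariates; Grem1 was under the filter in HIF2 replicates 6 to 8 and has 4 values. Bmp5 and Id2 stay above 0 in all 5, the Grem1 interval covers 0 with either covariate, and Id3 is lowest in HIF2 replicates 6 to 8, at -0.94.

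The rest of the pathway was read from a list of 65 genes in 6 subgroups, drawn up with earlier results of these data known. Of these, 37 passed the filter, and 13 were called higher and 4 lower in HIF2, with a median difference of 0.15. The backgrounds are the 11.0% and 11.1% of all genes above. Of the 37, 4 had a WT mean under 1 FPKM and passed through the HIF2 libraries. These were Bmp6, Gdf10, Fst and Chrdl1, and all 4 are among the 13 called higher. They could enter the test only by being higher in HIF2, so the counts that hold them are descriptions.

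Among antagonists, which include the membrane decoy receptor gene Bambi, 6 of 8 tested were called higher, with 0 lower and a median of 1.22, and the other 8 listed were under the filter. Twsg1 (twisted gastrulation, which modulates BMP binding to chordin) ran from 20.4 to 31.8 FPKM in HIF2 and from 14.0 to 20.5 FPKM in WT, and rose by 0.58 (SE 0.09, limma adjusted p = 0.000254). Nbl1, a relative of gremlin, rose by 1.25 (SE 0.23, limma adjusted p = 0.000928). Fstl1, Fst and Chrdl1, named after their values were seen, differed by 2.75, 1.65 and 1.18 and passed. Fst and Chrdl1 had WT means of 0.287 and 0.339 FPKM and entered the test only through the HIF2 libraries. None of these 5 antagonists passed with the fibroblast mean as a covariate, where Twsg1 differed by 0.42 (limma adjusted p = 0.0639) and Fstl1 by -0.11. Bambi differed by -0.16 and did not pass.

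Among other ligands, 2 of 5 tested were higher, and both, Bmp6 and Gdf10, passed the filter only through the HIF2 libraries. Bmp6, a ligand of the BMP5 and BMP7 group known for its part in iron sensing in liver, ran from 1.23 to 5.67 FPKM in HIF2, with a median of 3.31 FPKM, and from 0 to 1.44 FPKM in WT, with a median of 0.269 FPKM. It differed by 1.45 (SE 0.22, limma adjusted p = 0.000194), by 1.67 when only HIF2 replicates 6 to 8 were set against the 8 WT libraries (limma adjusted p = 0.000667), and by 1.16 with the fibroblast covariate (limma adjusted p = 0.0420). It was the 1 gene of the list called higher with that covariate. Gdf10 differed by 1.08 (limma adjusted p = 0.0184) and was listed at 0 in 6 WT libraries and in 2 HIF2 libraries.

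Of 9 receptors and co-receptors tested, 2 were higher, Eng by 1.09 (SE 0.26, limma adjusted p = 0.00592) and Acvrl1 by 0.51, both known from endothelial cells, and 1 was lower, the co-receptor gene Neo1 by -0.51 (SE 0.11, limma adjusted p = 0.00310). Neither Eng nor Acvrl1 passed with the smooth muscle covariate or in HIF2 replicates 6 to 8. The main type I and type II receptor genes Bmpr1a and Bmpr2 differed by 0.10 and 0.29 and did not pass.

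Of 10 signal transducers and their inhibitors tested, 3 were lower and 1 was higher. Tob1, a repressor of SMAD-driven transcription, ran from 26.5 to 36.0 FPKM in HIF2 and from 35.3 to 58.2 FPKM in WT, a difference of -0.62 (SE 0.09, limma adjusted p = 0.000158). Smad1, a transducer of BMP signals, differed by -0.46 (SE 0.09, limma adjusted p = 0.00144), with 8 of 9 HIF2 libraries below the WT minimum, and Smad7, an inhibitory SMAD that is itself induced by the pathway, by -0.41. Smad5, the close relative of Smad1, rose by 0.25 (SE 0.06, limma adjusted p = 0.00862). The lower calls of Smad1, Tob1 and Neo1 stand beside the 4 of 8 epithelial markers called lower. With the epithelial level added as a covariate, Smad1, Tob1 and Neo1 differed by -0.53, -0.74 and -0.62 and passed. Smad1, Smad7 and Tob1 also passed with the smooth muscle and with the fibroblast covariate and in both subsets of HIF2 libraries.

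The processing genes Bmp1, a protease that cleaves chordin, and Pcsk6, a proprotein convertase, rose by 1.09 and 0.74 (2 of 3 tested). Of 9 other target genes 7 were under the filter, and Id4 and Runx1 differed by 0.74 and 0.20 without passing. Id4 ran from 4.50 to 20.6 FPKM in HIF2 replicates 0 to 5 and from 1.98 to 3.30 FPKM in replicates 6 to 8, against 2.42 to 6.16 FPKM in WT.

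**Figure D5:**
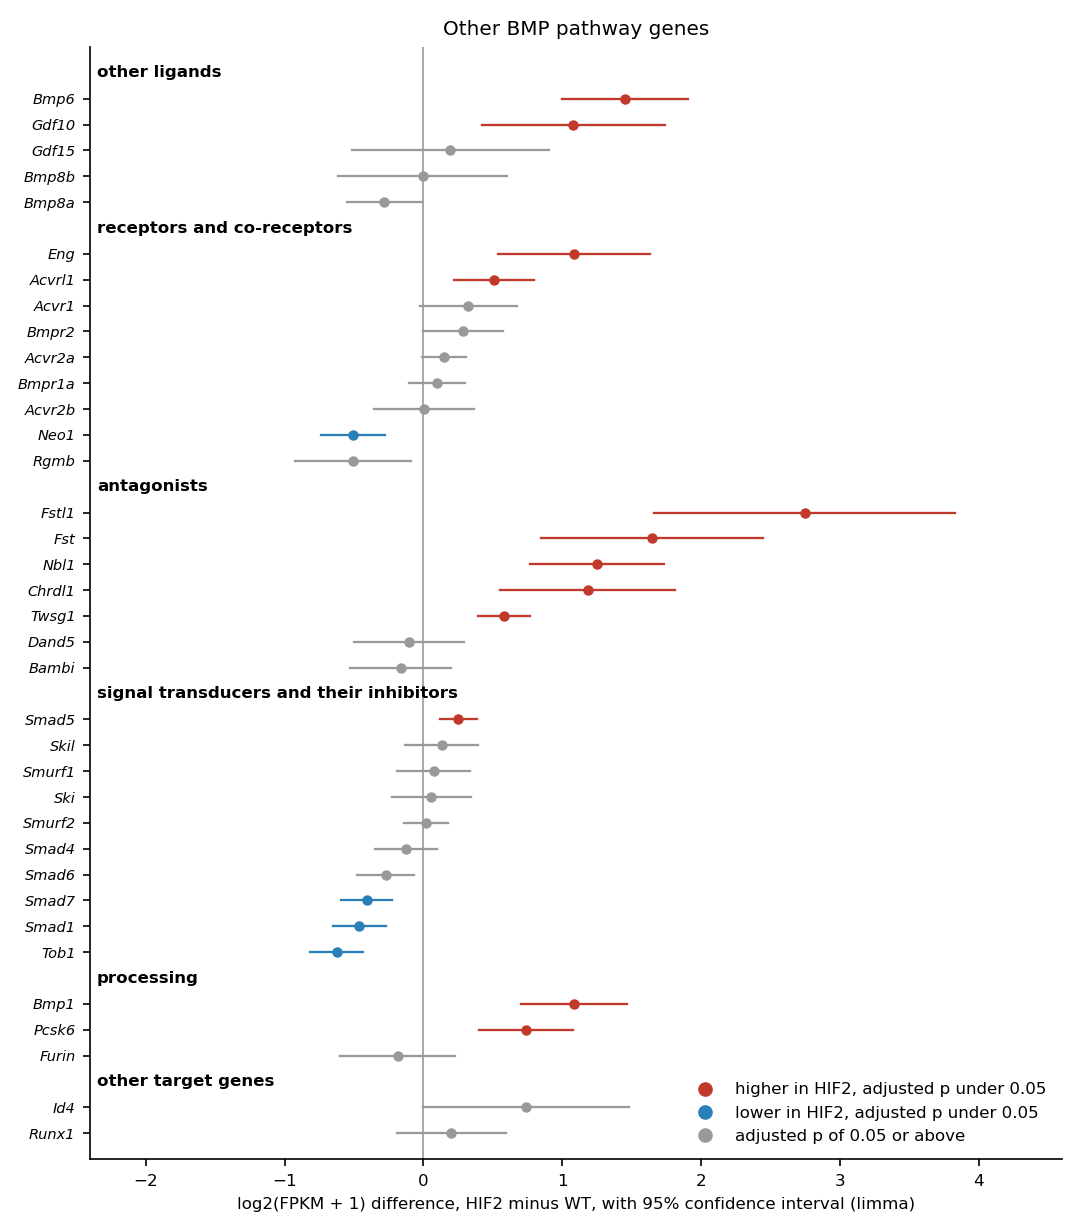
Difference in log2(FPKM + 1), HIF2 minus WT, with its 95% confidence interval from limma, for other BMP pathway genes tested, by subgroup (red, called higher; blue, called lower; grey, not called). The 5 called antagonists shown lie at 0.58 and above, and the transducers lie between -0.62 and 0.25.

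The genes whose library-to-library pattern lay closest to each of the 9 were found by Pearson's r over the 18 libraries after the mean of each group was subtracted. These are the highest of many values and are given as descriptions. For Grem1 they were Rspo3, Slit3 and Itga5, at 0.95, 0.95 and 0.94. For Bmp4 they were Tie1, Rgl1 and Adam23, at 0.92, 0.90 and 0.90, and for Bmp5 they included Fcgr4 and Cd93, each at 0.83. The closest to Id2 were Mt1, Gapdh and Eml4, at 0.89, 0.87 and 0.87, and to Id3 Aldh1a1, Fabp2 and Lhfpl2, at 0.93, 0.92 and 0.90. For Id1 they were Smpx, Pstk and Thap7, at 0.82, 0.81 and 0.79. For Bmp2 they were Tnip3, St5 and Tlr4, at 0.85, 0.79 and 0.77, for Bmp3 Cyp4b1, Slc9a3 and Rtn4r, at 0.79, 0.79 and 0.77, and for Bmp7 Sept11, Slc45a4 and Arid5a, at 0.89, 0.88 and 0.87. Without HIF2 replicate 0 the value fell most for Arid5a with Bmp7, to 0.66, while those for Grem1 and Id2 stayed between 0.87 and 0.94.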

How the data were processed

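The authors deposited FPKM values, 1 column per library, and all 18 columns were used. The mm10 build and the tools Cufflinks, Cuffdiff 2.1.1, TopHat2 2.0.9, TopHat, Bowtie2 2.1.0.0 and FastQC appear in the submitters' processing notes, with no roles stated. The sources used here do not give the annotation release, strand setting or depth. Per the labels' protocols, libraries came from a TruSeq v2 kit, which keeps no strand information, so a gene cannot be separated from one overlapping it on either strand.

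Here log2(FPKM + 1) was tested without further scaling in limma 3.58.1 (R 4.3.3) with a trended prior, 2-sided, with Benjamini-Hochberg adjustment over the 13976 genes with a mean of at least 1 FPKM. The procedure was tested on simulated data. Single genes were also compared by an exact permutation test. The 9 genes, the pathway and marker lists and the subsets of libraries were chosen with earlier results of these data known. Named genes were the 9, Epas1, the 2 of smallest p in each of 6 pathway subgroups and the 3 closest patterns per gene, leaving out predicted genes and small RNAs. Other names were chosen after their values were seen. For 2 genes that enter the counts or the rule, the values are not reported here. Of 73 cell type markers, 72 matched a row. Alternatives were pseudocounts of 0.1 and 0.01, other filters, scalings, covariates, weights and priors, a replicate block, a rank test and left-out libraries. Figures used matplotlib 3.10.9.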

Additional observations from a re-analysis of the deposited data

Results flagged for a closer look

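The highest and lowest library of each group of 9 was compared with its nearest neighbour for the 9 genes and Epas1 on the log2(FPKM + 1) scale, and 3 values in 20 groups stood apart by Dixon's criterion, where chance gives about 1 in 20 groups. Bmp7 was 9.02 FPKM in HIF2 replicate 0, against at most 1.69 FPKM in the other HIF2 libraries. In WT, Bmp7 was listed at 0 FPKM in replicate 6. Bmp3 was 35.5 FPKM in WT replicate 7, with the other WT libraries between 24.4 and 29.2 FPKM.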

How the results depend on the processing

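Across 35 alternatives, Bmp5 and Id2 kept their direction and their call in all 35. Genes called higher numbered 640 with a filter at 5 FPKM and 2407 with none, against 1531 in the main fit. With the smooth muscle covariate 949 were higher and 1020 lower, and with the fibroblast covariate 794 and 772. Of the 9 genes, the fibroblast covariate left 2 higher and 0 lower, where 5.68% and 5.52% of all genes were called. The smooth muscle covariate gave 3 lower, against 7.30% of all genes. HIF2 replicates 6 to 8 against 8 WT libraries gave 2 higher and 2 lower of 8 tested, against 8.97% and 10.6%. Bmp3 accounts for the added calls without HIF2 replicate 2 or 3 (limma adjusted p = 0.0195 and 0.0470). With each library left out in turn, 1 to 2 of the 9 were lower and 4 higher. Over all genes, those fits called 1336 to 1657 lower and 1282 to 1661 higher. Other pathway genes called higher were 4 with the filter at 5 FPKM (20 tested), against 640 of 9287 genes. With the smooth muscle, fibroblast and epithelial covariates they were 6, 1 and 8 (37 tested), against 6.79%, 5.68% and 9.72% of all genes. In HIF2 replicates 6 to 8 they were 7 (33 tested), against 8.97%.

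Among the 9, signs turned only for Bmp2 and Bmp7, which had not passed, and for Grem1, at -0.61 with the fibroblast covariate. With that covariate Gdf10, Chrdl1, Fstl1 and Eng, called higher without it, were at -0.34, -0.25, -0.11 and -0.02. Bmp2 was 0.0069 with upper quartile scaling, 0.14, 0.14 and 0.17 with the smooth muscle, fibroblast and epithelial covariates, 0.21 in HIF2 replicates 6 to 8, and -0.14 to 0.0513 with 1 library left out. Bmp7 was -0.039 with array weights, -0.0389, -0.41 and -0.10 with those covariates, -0.0161 in HIF2 replicates 6 to 8, and -0.0686 to 0.26 with 1 library left out. The cause was not tested. With a replicate block, 4 of the 9 were higher and 1 lower (1355 and 1345 of all genes). Same-numbered libraries deviated together little (highest r 0.112, in replicate 6). Only in replicate 6 was the HIF2 library closest to the WT library of its own number. A low r cannot exclude that the numbers pair the libraries. Without counts, low values such as those of Grem1, Bmp7 and Gdf10 have no counting error attached.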
